A study of Mus musculus with 6 samples.

Results

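Of 21419 promoter peaks in E11.5 distal forelimb buds, 749 (3.5%) were less accessible in embryos lacking HOXA13 and HOXD13. A promoter peak is an ATAC-seq peak whose midpoint lies within 1 kb of a transcript start site of the GENCODE annotation, and the other 40535 of the 61954 merged peaks lay farther from any start site. The 749 peaks were chosen by their own values: the mean of the Hox13-/- libraries was at least 0.4 below the wild-type mean on the rLog scale, and both wild-type values exceeded both Hox13-/- values. The genotype difference of these peaks is therefore a description and was not tested. Both wild-type values exceeded both mutant values in 41.6% of promoter peaks and in 29.6% of all peaks. With the threshold, 4.69% of all peaks and 5.32% of those away from promoters were lower. By the mirrored rule 348 promoter peaks (1.62%) and 8.15% of all peaks were higher. As deposited, lower peaks thus outnumbered higher ones at promoters and not over all peaks. Both balances depended on the scaling. By a limma fit (adjusted p under 0.05), 5146 of all peaks were lower and 7040 higher as deposited. With each library centred on its median over all peaks, 6811 were lower and 6017 higher. With centring on promoter peaks, 276 promoter peaks met the rule for lower peaks. This centring lowers both wild-type libraries and raises both mutant ones, so the 348 higher promoter peaks still meet the mirrored rule. The excess of lower peaks at promoters thus does not hold under it.

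ATAC-seq reads open chromatin from the sites at which the transposase Tn5 inserts adapters. The libraries were made from distal forelimb buds of mice of mixed background C57Bl/6 x 129, of which 2 were wild type and 2 were Hox13-/-. In the mutant, Hoxa13 carries the null allele Hoxa13Str and Hoxd13 the null allele Hoxd13lacZ. Each library used 50000 cells of the left and right buds of 1 embryo. Another 2 libraries, of proximal buds, were not analysed here. Their titles call them wild type, and the animals are labelled as controls with the RosaHoxa11 allele. The deposited values are rLog, a regularised log2 scale that corrects for library size and shrinks weak peaks towards their mean, so the differences of weak peaks are smaller than their raw fold changes. No read count per peak is in these values, the depth behind each peak is unknown, and 2 libraries per genotype limit the precision. As undivided distal tissue was used, fewer cells with an open promoter and a less open promoter in each cell cannot be told apart.

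HOXA13 and HOXD13 are homeodomain transcription factors required for digit formation. Their known binding is mostly at enhancers away from promoters. Vertebrate promoters fall broadly into those within CpG islands, GC-rich stretches open in most cell types that often serve widely used genes, and CpG-poor promoters, which more often serve tissue-restricted genes and may hold a TATA box. Accessibility at a promoter is not transcription, and no RNA was measured in these libraries.

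The sequences of 6 of the peaks show the range of base composition among them. They are Hoxd13 and, among peaks of at most 300 bp with at least 60 bases outside exons, the 3 with the largest decrease (Gm48398, Krt32, Ppp3ca) and those with the highest (Arap2) and the lowest (Gm48787) GC content. Each is the longest stretch of the peak outside the exons of GENCODE and RefSeq, read from the mm10 genome on the owner's strand. Capitals mark, in either orientation, the HOX13-like motif CAATAAA, the TATA box TATAAA, the CCAAT box and the GC box GGGCGG. The owner is the gene with the nearest start site. The stretches lie at chr2:74668196-74668224 (Hoxd13, plus strand), chr12:18609929-18610200 (Gm48398, plus), chr11:100089017-100089302 (Krt32, minus), chr3:136671245-136671509 (Ppp3ca, plus), chr5:62766193-62766254 (Arap2, minus) and chr10:51551762-51551958 (Gm48787, minus).
Hoxd13: ggaaaGGGCGGgagcgagcgcgccgcgga
Gm48398: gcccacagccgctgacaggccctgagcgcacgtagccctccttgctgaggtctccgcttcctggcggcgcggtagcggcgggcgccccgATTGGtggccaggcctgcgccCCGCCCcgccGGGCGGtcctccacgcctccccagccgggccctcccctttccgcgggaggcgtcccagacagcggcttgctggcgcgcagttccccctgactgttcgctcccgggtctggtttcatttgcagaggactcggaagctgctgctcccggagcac
Krt32: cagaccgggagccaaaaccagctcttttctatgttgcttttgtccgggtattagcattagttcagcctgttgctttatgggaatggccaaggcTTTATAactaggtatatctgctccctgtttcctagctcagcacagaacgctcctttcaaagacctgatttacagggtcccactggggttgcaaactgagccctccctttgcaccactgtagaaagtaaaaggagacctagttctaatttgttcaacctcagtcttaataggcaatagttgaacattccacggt
Ppp3ca: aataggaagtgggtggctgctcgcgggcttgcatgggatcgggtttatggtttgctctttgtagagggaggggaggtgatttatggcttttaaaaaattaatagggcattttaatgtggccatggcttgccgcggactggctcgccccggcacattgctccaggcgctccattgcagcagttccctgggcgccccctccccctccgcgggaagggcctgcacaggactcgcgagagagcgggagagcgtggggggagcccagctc
Arap2: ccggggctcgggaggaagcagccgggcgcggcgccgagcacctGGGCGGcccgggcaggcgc
Gm48787: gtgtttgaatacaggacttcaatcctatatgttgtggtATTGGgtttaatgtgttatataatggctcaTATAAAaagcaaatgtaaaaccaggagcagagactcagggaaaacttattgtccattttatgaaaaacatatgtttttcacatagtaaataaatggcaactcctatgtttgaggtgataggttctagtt
The Arap2 stretch had a GC content of 85.5% and 10 CpG dinucleotides in 62 bases, and the Gm48787 stretch had a GC content of 32.5% and none in 197. The Krt32 and Gm48787 stretches each held 1 TATAAA match, and the Hoxd13, Gm48398 and Arap2 stretches held GGGCGG. None of the 6 stretches held CAATAAA.

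Values are given with the wild-type libraries first, then the mutant libraries. The largest decrease was at Hoxa11os, a transcript antisense to Hoxa11 (ENSMUSG00000086427.8). This peak, at chr6:52244502-52245040 in an exon of Hoxa11os with its midpoint 378 bp downstream of a start site, had rLog values of 6.85 and 6.81 in wild type against 5.25 and 4.93 in the mutant, a difference of -1.74. A neighbouring peak at chr6:52243680-52244259, in an intron of Hoxa11os, stood at 6.25 and 6.63 against 5.74 and 5.69 (difference -0.72). The decrease did not extend over the whole gene. At 2 further Hoxa11os start sites the mutant values were above wild type, with 5.70 and 5.72 against 5.81 and 5.90 at the one shared with Hoxa11 and 6.14 and 6.20 against 6.39 and 6.30 at the other.

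Among the other 11 of the 12 largest decreases, differences ran from -1.38 to -0.98. At Gramd3, on chromosome 18, wild-type values of 4.81 and 5.25 stood against 3.66 and 3.64. At Lmo7, which encodes a LIM-domain protein of cell junctions, they were 5.06 and 5.39 against 3.97 and 4.01 at chr14:101838278-101838612. This peak lies in an intron at a start site inside the gene, and the Lmo7 peaks at 2 other start sites had differences of -0.10 and -0.30. At Mpped2, too, peaks lay at more than 1 start site. Its peak at chr2:106729661-106730480, in an intron, gave 6.91 and 6.86 against 6.01 and 5.64, whereas its 2 other promoter peaks, both at another start site, differed by -0.14 and -0.03.

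Coil, which encodes the Cajal body protein coilin, owned 2 of the 12. At chr11:88970330-88970698 the values were 4.88 and 5.12 against 3.96 and 3.86, and at chr11:88969152-88969504 they were 4.59 and 4.37 against 3.45 and 3.47. The third Coil promoter peak, with a GC content of 63.9%, gave 6.09 and 5.80 against 5.76 and 5.71, a difference of -0.21. The 2 lower Coil peaks had GC contents of 47.2% and 37.7%, and 5 of the lower non-promoter peaks lay within 50 kb of each.

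At chr3:67891520-67891953, 484 bp upstream of Iqcj and of the Iqschfp read-through transcript, wild-type values of 5.85 and 5.96 stood against 4.64 and 4.97. The next gene, Schip1, owned the next largest decrease, with 6.91 and 6.92 against 6.03 and 5.85 at chr3:68595310-68595820, where the peak lies in an intron. None of the other 7 Schip1 promoter peaks was a member, and their differences ran from -0.18 to 0.36. At Cdc40, a splicing factor gene, the peak had its midpoint 988 bp downstream of the start site and values of 6.63 and 6.53 against 5.57 and 5.63. The 12 largest also included the unclassified locus Gm47743 (-1.19), the long non-coding RNA gene Gm36548 (-1.16), the processed pseudogene Gm48398 (-1.16) and the predicted protein-coding gene Gm36079 (-1.02). In each of the 12 the lowest wild-type value was above the highest Hox13-/- value, which the rule required.

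**Figure D1:**
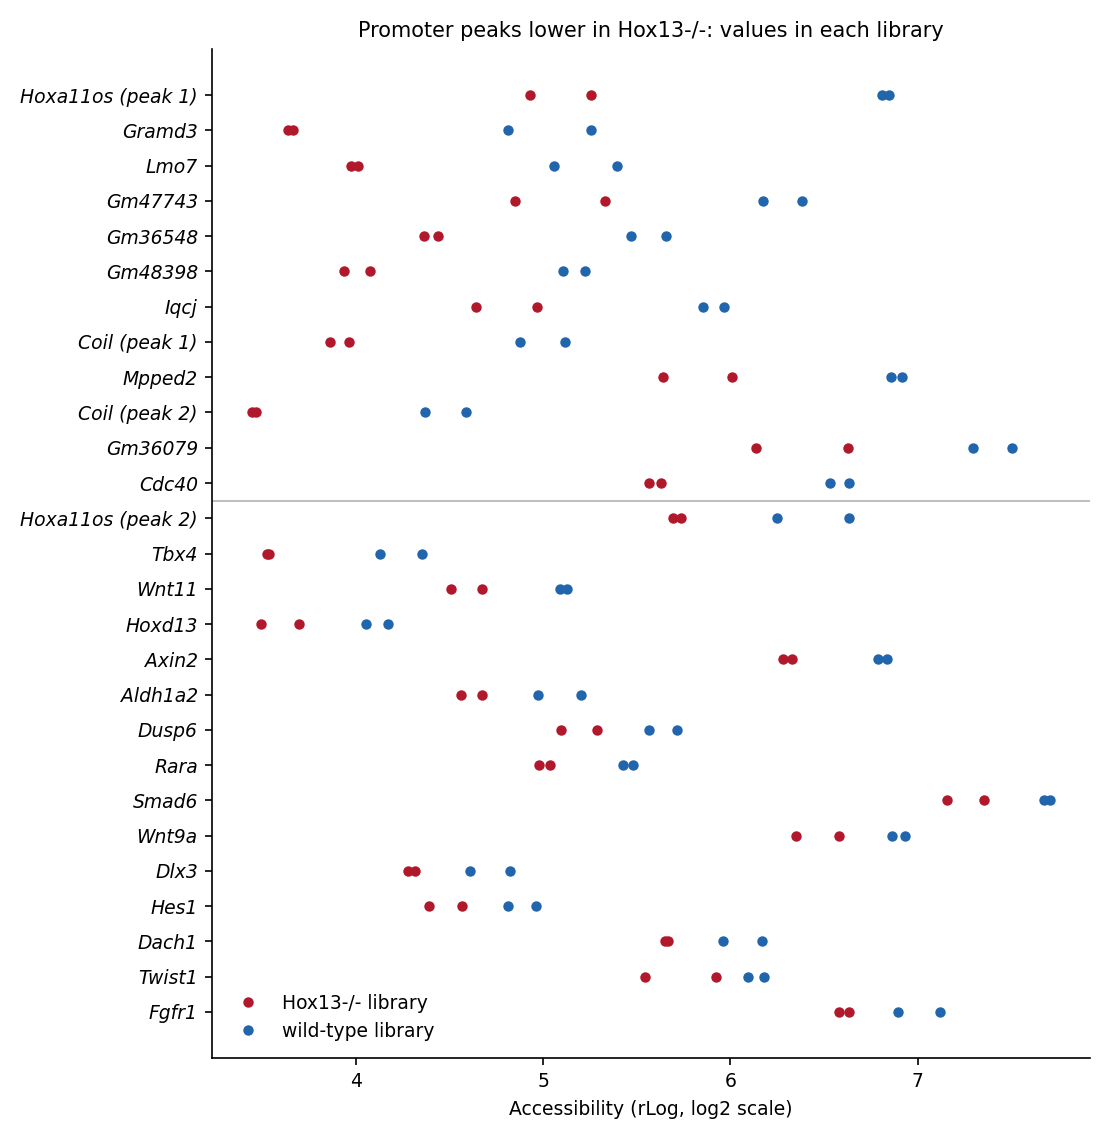
Accessibility (rLog, log2 scale, horizontal axis) of single promoter peaks in each of the 4 libraries, with wild-type libraries in blue and Hox13-/- libraries in red. Above the line are the 12 peaks with the largest decrease, led by Hoxa11os at -1.74, and below it the peaks of Hox genes, limb patterning factors and signalling genes, down to Fgfr1 at -0.40. Peak 1 and peak 2 of Hoxa11os and of Coil are different peaks of the same gene.

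Among Hox genes, 3 of 50 promoter peaks were members (6.00%, beside 3.5% of all promoter peaks). They were the 2 of Hoxa11os and 1 of Hoxd13. Hoxd13 is itself altered in the mutant. Its peak over the start site, at chr2:74668196-74668383, read 4.06 and 4.17 in wild-type libraries and 3.70 and 3.50 in mutant libraries, a difference of -0.52. The peak over the Hoxa13 start site, whose gene is also inactivated, had overlapping libraries, with 5.71 and 5.95 against 5.66 and 5.84. A second Hoxd13 peak, 276 bp upstream, was at 4.35 and 4.34 against 3.99 and 4.17 (-0.26). The median difference of the 50 Hox peaks was 0.11, against -0.10 over all promoter peaks, and 6 of them were higher by the mirrored rule. By limma over all 61954 peaks, with Benjamini-Hochberg adjustment, 6 of the 50 had an adjusted p under 0.05 and were lower and 9 were higher. Of all promoter peaks, 8.31% were called lower and 2.38% higher. The 8.31% were 1779 peaks as deposited, which became 922 with the GC trend described below removed.

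The limb patterning factors other than Hox had 117 promoter peaks, of which 4 were members (3.42%, beside 3.5% of all promoter peaks). Tbx4, a T-box factor known for its role in the hindlimb, was at 4.35 and 4.13 against 3.53 and 3.54 (difference -0.71, in an untranslated exon). Its second promoter peak narrowly failed the rule at -0.40. Dlx3, a distal-less homeobox gene, had 4.61 and 4.83 against 4.32 and 4.28 (-0.42). Dach1 had 5.96 and 6.17 against 5.65 and 5.66 (-0.41), and Twist1, a mesenchymal basic helix-loop-helix factor, 6.09 and 6.18 against 5.92 and 5.55 (-0.40). The second Twist1 promoter peak was at 4.56 and 4.59 against 4.62 and 4.51 and showed no separation. By limma, 7 of the 117 were lower and 2 higher, where the shares over all promoter peaks were 8.31% and 2.38%. With the GC trend described below removed, Tbx4 and Dach1 still met the rule and Dlx3 and Twist1 did not.

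Signalling genes of the SHH, FGF, WNT, BMP and retinoic acid pathways had 9 members among 176 promoter peaks (5.11%). The share over all promoter peaks was 3.5%, and the median difference over the 176 was -0.10. WNT pathway genes were Wnt11 (5.09 and 5.13 against 4.67 and 4.51), Wnt9a (6.86 and 6.93 against 6.58 and 6.35) and Axin2, a feedback inhibitor and target of the pathway (6.83 and 6.79 against 6.28 and 6.33). Each of these 3 genes encodes a ligand or a regulator of WNT signalling, and their differences were -0.52, -0.43 and -0.51. Another Wnt11 promoter peak, in an intron, was higher in the mutant, at 6.74 and 6.89 against 7.23 and 7.15. The retinoic acid genes were Aldh1a2, which makes retinoic acid (5.20 and 4.97 against 4.67 and 4.56), and Rara, a receptor (5.43 and 5.48 against 5.04 and 4.98).

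For FGF signalling the members were the receptor Fgfr1 (-0.40) and Dusp6, a phosphatase that limits ERK signalling (-0.45). The Dusp6 member was an intron peak at 5.71 and 5.57 against 5.10 and 5.29. The main Dusp6 promoter peak was the strongest of the gene and stood at 8.19 and 8.22 against 8.21 and 8.21, a difference of 0.01. Smad6, an inhibitor of BMP signalling, and Hes1, which the list includes although it is best known as a Notch target, differed by -0.43 and -0.41. By limma, 14 of the 176 were lower and 2 higher, where 8.31% of all promoter peaks were lower and 2.38% higher. With the GC trend described below removed from each library, Dusp6 alone of the 9 still met the rule. The others failed it but stayed below 0, as did all 749 members. Every member starts at or below -0.4, so staying below 0 follows largely from the rule. The median difference of the 749 was then -0.365, against -0.458 as deposited.

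For the other gene groups the share to compare is again 3.5% of all promoter peaks. Adhesion and guidance genes had 4 of 80 peaks (5.00%), namely Pcdh17 (-0.48), Plxnd1 (-0.47), Sema3a (-0.47) and Unc5b (-0.44). Chondrogenic and joint genes had 2 of 53 (3.77%), the peak shared by Sox8 and an antisense transcript and an intron peak of Erg, and Erg was also the 1 member of 16 endothelial and blood peaks. Cell cycle and replication genes had 2 of 54 (3.70%), Mcm3, a subunit of the replicative helicase, and the peak shared by Cdk2 and Pmel. The Jund peak was the 1 member among 45 peaks of immediate early and stress genes (2.22%). No member was found among 13 muscle precursor, 6 ectoderm, 10 neural crest, 7 protocadherin and 12 olfactory or vomeronasal receptor peaks. With the GC trend described below removed, Pcdh17, Sema3a, Mcm3 and the Sox8 and Cdk2 peaks still met the rule. Plxnd1, Unc5b, Erg and Jund did not.

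Core histone genes, which are intronless and present in many near-identical copies, had the lowest median difference of the 16 lists, at -0.20 over 61 promoter peaks. Of these, 4 were members (6.56%). The peak shared by Hist2h2bb and Hist2h3b was at 7.54 and 7.45 against 6.70 and 7.07 (-0.61). The peaks of Hist1h2al (-0.63), Hist1h3h (-0.46) and Hist1h4d (-0.42) completed the group, and 9 of the 61 were lower and 0 higher by limma, where 8.31% of all promoter peaks were lower and 2.38% higher. Ribosomal protein genes had 4 members of 123 peaks (3.25%), of which Rpl17-ps3 and Rpl29-ps2 are pseudogenes. Zinc finger genes of the Zfp series had 13 of 483 (2.69%), from Zfp286 at -0.66 to Zfp787 at -0.40. With the GC trend removed, all 4 core histone and all 4 ribosomal members still met the rule, as did 7 of the 13 Zfp members.

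Small nuclear RNA genes owned 7 members, 0.935% of the 749 against 0.343% of the other promoter peaks. They were named after their values were seen. A row of 4 lay within 30 kb on chromosome 12, with Gm22634 at 8.68 and 8.72 against 8.26 and 8.15, and with Gm25679, Gm26444 and Gm22317 at differences of -0.62, -0.57 and -0.50. The other 3 were Rnu1b1, a U1 gene, Gm24830 and Gm24805. Such genes exist in many copies. The central 32 bases of the peak occurred at 2 or more places on the assembled chromosomes for 34 of the 749 members (4.54%) and for 2.70% of the other promoter peaks, including 22 places for Gm25679, 2 for Gm36548 and 2 for Gm36079. All 4 core histone members were among them, with 20 places for the Hist1h2al peak, 12 for Hist2h3b, 12 for Hist1h3h and 2 for Hist1h4d. Reads from such copies may not be assigned with certainty. Whether the reads over these peaks map to 1 place was not tested, and the gene they belong to is uncertain to that extent.

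The members belonged to 732 owner genes, and 85.7% of the members had a protein-coding owner, beside 85.2% of the other promoter peaks. Of the owners, 402 had a single promoter peak, and 330 had 2 or more. In 324 of these 330 at least 1 promoter peak was not a member. The 571 other promoter peaks of the owner genes had a median difference of -0.08, and 383 were below 0, beside a median of -0.09 over all 20670 other promoter peaks, of which 70.4% were below 0. Esr1, the oestrogen receptor gene, was the 1 owner with 3 member peaks, at differences of -0.71, -0.41 and -0.49, and it had 3 more promoter peaks at -0.04, -0.08 and -0.24.

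A start site lay inside 73.4% of the members and 61.6% of the other promoter peaks. The CpG classes described below differed in this. The share was 86.2% in CpG-rich members (480 of 557) and 24.1% in CpG-poor members (28 of 116), beside 75.6% and 30.3% of the other promoter peaks of those classes. A start site lay inside 14 of the 40 members at -0.7 or below (35.0%). With protein-coding start sites alone, 19 of these 40 were promoter peaks. The 749 members had a median length of 446 bp (quartiles 323 and 631) and the other promoter peaks 351 bp (184 and 605), but the promoter peaks higher by the mirrored rule were about as long, at 441 bp (332 and 593). A peak was called in wild-type replicates 1 and 2 for 99.3% and 94.3% of members and in Hox13-/- replicates 1 and 2 for 69.6% and 76.8%. In the other promoter peaks the same shares were 79.3%, 63.3%, 72.2% and 80.4%. The calls come from the same libraries whose values the rule used, so this contrast follows in part from the choice of members. For 11.9% of members and 8.49% of the other promoter peaks, at least 1 lower non-promoter peak lay within 50 kb, and the same held for 42 of the 348 promoter peaks higher by the mirrored rule (12.1%). These values are over regions, which are not replicates of the genotypes, and the differences between the groups of regions were not tested.

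The median of the mean rLog over the 4 libraries was 6.25 in members (quartiles 5.36 and 6.90) and 5.60 in the other promoter peaks (4.23 and 6.89). The members' median was 5.77 with a threshold of -0.5, 5.61 with the GC trend removed and 5.61 with cyclic loess. In the libraries themselves the members' medians were 6.47 and 6.53 against 6.02 and 6.00, and those of the other promoter peaks were 5.63 and 5.62 against 5.57 and 5.57. When all promoter peaks were ranked by signal and divided into 10 equal parts, members made up 0.514% of the weakest, 6.26% of part 7 and 2.38% of the strongest. The rLog scale shrinks weak peaks, and its part in these shares was not tested. The spread between replicates did not differ in the same way, with a median SD of 0.08 in wild type and 0.09 in Hox13-/- among members and 0.09 and 0.08 among the others.

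The strongest member was at Sfi1, a centrosomal protein gene, with 10.04 and 10.08 against 9.26 and 9.23 (-0.81). It was followed by Sap130, a subunit of a histone deacetylase complex (-0.64), Opa3 (-0.45), Pkd1 (-0.41) and Ppp2r5a (-0.53). At Opa3 the values were 9.40 and 9.48 against 9.05 and 8.93. All 5 peaks were rich in CpG. The members nearest the threshold, Fam129c, Gm13848 and Ccdc134, and the peaks just outside it, Tsen34, Gna11 and Fstl1, all differed by -0.40 to 2 decimals, and 3 promoter peaks at or below -0.4 were left out because their libraries overlapped.

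**Figure D2:**
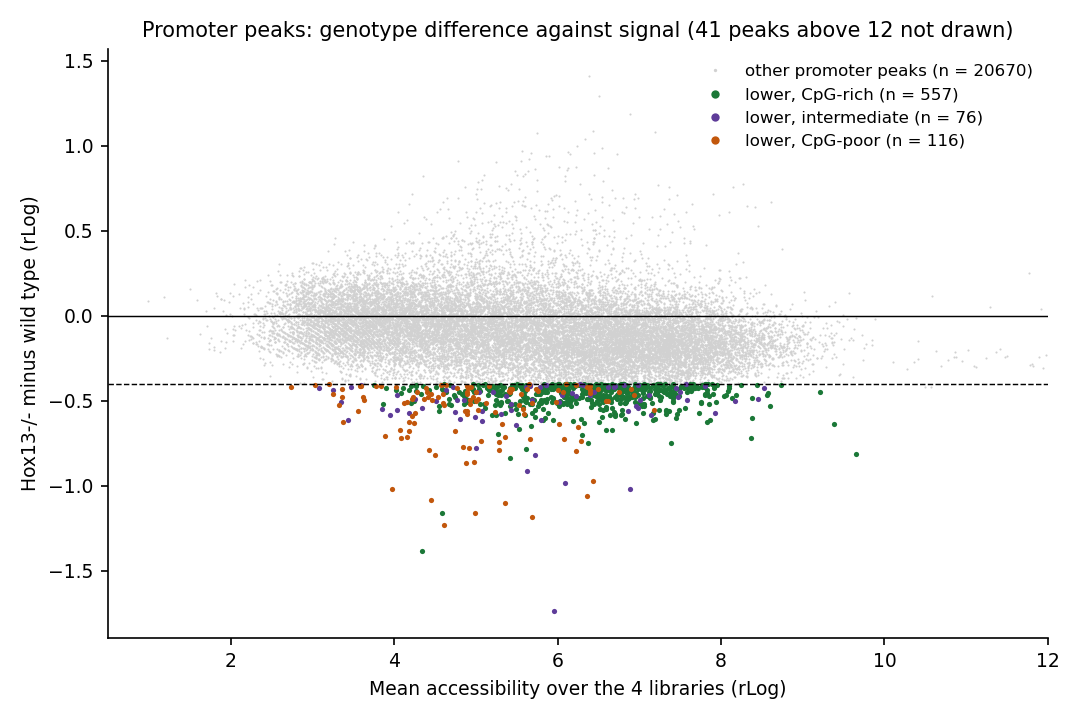
Difference between genotypes (Hox13-/- minus wild type, rLog, vertical axis) against the mean accessibility over the 4 libraries (rLog, horizontal axis) for promoter peaks. Grey points are the 20670 other promoter peaks and coloured points the 749 members, below the dashed threshold at -0.4, in 3 classes of CpG content. The 41 peaks with a mean above 12, none of them a member, are not drawn. Differences beyond -1 are mostly CpG-poor peaks of middling signal.

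The members had a median GC content of 65.3% (quartiles 58.5% and 70.3%), and the other promoter peaks 62.6% (56.0% and 68.3%). This order depended on the rule and the scaling, since the members' median was 62.2% with a threshold of -0.5 and 52.4% with the GC trend removed from each library, where 125 of 412 members (30.3%) were CpG-rich by the classes that follow. The ratio of observed to expected CpG, which is near 1 in unmethylated CpG islands, had a median of 0.779 in members and 0.733 in the others. Peaks were called CpG-rich at a GC content above 55% and a ratio above 0.6, CpG-poor at a ratio below 0.4 and otherwise intermediate, classes set after the values had been seen. By these classes 557 members were CpG-rich (74.4%), 76 intermediate (10.1%) and 116 CpG-poor (15.5%). Of the other promoter peaks 61.8% were CpG-rich and 20.2% intermediate, and 3720 of the 20670 were CpG-poor, a larger share than among the members. The GC contents of single members ran from 32.5% at Gm48787, 32.8% at a Dennd1a start site and 34.5% at Atg10 to 83.4% at Lrp5, a WNT co-receptor, 84.2% at Myo5b and 85.2% at Arap2. The median GC content was 47.0% in the CpG-poor members, 44.5% in the lower non-promoter peaks and 48.8% in all non-promoter peaks.

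The classes were not spread evenly over the size of the decrease. Of the 40 members at -0.7 or below, 25 were CpG-poor (62.5%) and 9 CpG-rich, with a median GC content of 47.2%. Between -0.7 and -0.5, 31 of 179 were CpG-poor (17.3%), and between -0.5 and -0.4, 60 of 530 (11.3%), with 425 CpG-rich (80.2%). Hoxa11os, Lmo7, Iqcj, Coil, Mpped2, Cdc40 and Schip1 were CpG-poor or intermediate, whereas Gramd3 and Gm48398 were CpG-rich. All 9 signalling members other than Dusp6 were CpG-rich. Signal differed too, and CpG-rich members were the stronger, with a median mean rLog of 6.51 and a median length of 494 bp against 304 bp in CpG-poor members.

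**Figure D3:**
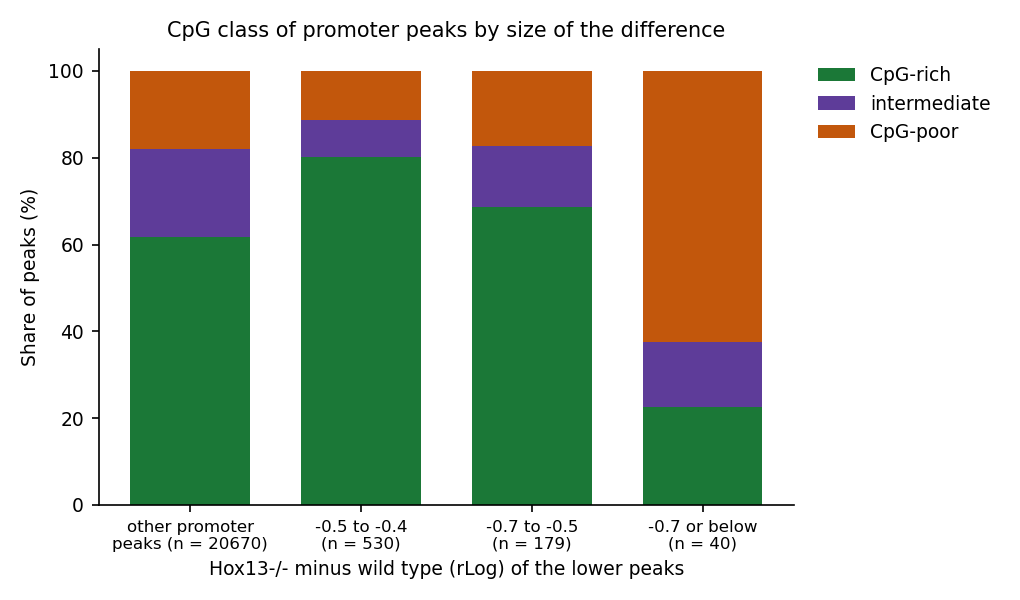
Share of promoter peaks (percent, vertical axis) that were CpG-rich, intermediate or CpG-poor, for the other promoter peaks and for members in 3 ranges of the difference (Hox13-/- minus wild type, rLog). CpG-poor peaks make up 11.3% of members between -0.5 and -0.4 and 62.5% of the 40 at -0.7 or below.

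The difference between genotypes followed GC content over all promoter peaks. In 10 bins of GC content with about equal numbers of peaks, the median difference went from 0.02 in the lowest bin to -0.14 in the highest, while the median difference between replicates of 1 genotype stayed within 0.03 of 0 in every bin. Members made up 4.52% of the lowest bin, 1.63% of bin 3 and 4.82% of the highest. Peaks higher by the mirrored rule numbered 149 in the lowest bin and 2 in the highest. With a loess curve on GC content removed from each library, 412 promoter peaks met the rule. Among them were 283 of the 749 members. By class these were 120 of the 557 CpG-rich (21.5%), 59 of the 76 intermediate (77.6%) and 104 of the 116 CpG-poor (89.7%). The members' median difference was then -0.365, against -0.458 as deposited. All 749 stayed below 0, which follows largely from their choice at or below -0.4. The part of a GC-dependent yield of the libraries in the members' difference was not tested, and genotype and library preparation cannot be told apart with 2 libraries each.

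**Figure D4:**
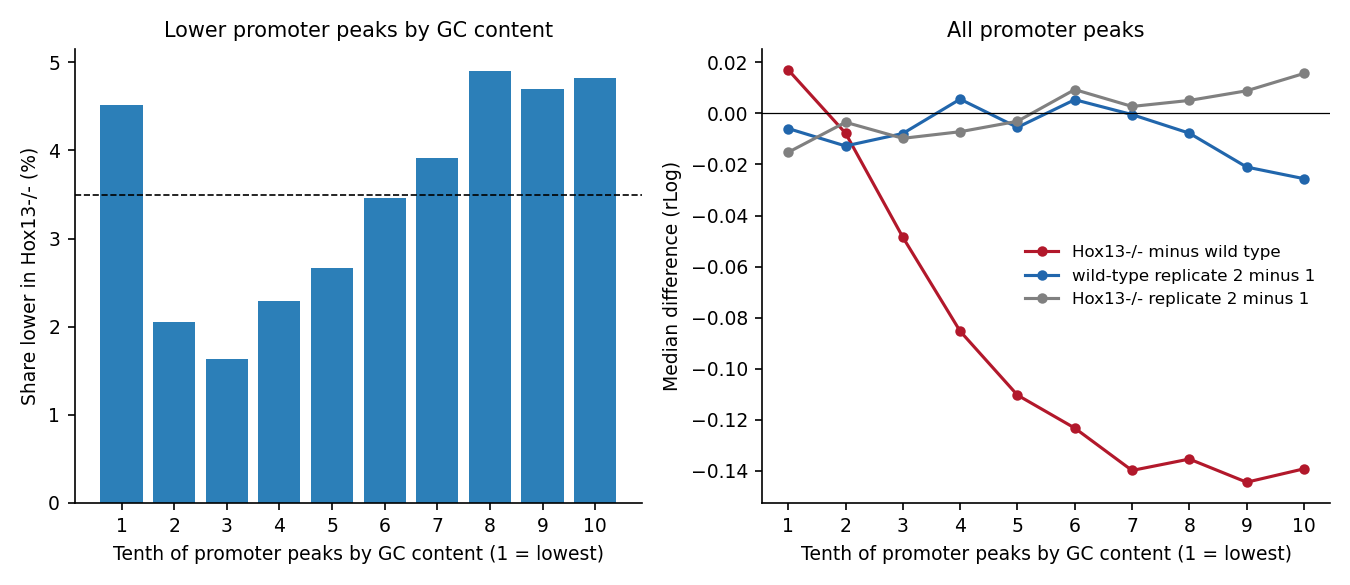
Promoter peaks in 10 bins of GC content, from the lowest (1) to the highest (10). Left, the share of members in each bin (percent), with the share over all promoter peaks, 3.5%, as a dashed line. Right, the median difference of all promoter peaks in each bin (rLog) between genotypes (red) and between replicates of wild type (blue) and of Hox13-/- (grey). The genotype line falls to -0.14 while both replicate lines stay within 0.03 of 0.

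The number of members depended on the scale of the libraries. As deposited, the median difference was -0.10 over promoter peaks and 0.07 over all other peaks. With each library centred on its median over promoter peaks, 276 of the 749 members met the rule, and the members' median difference was -0.377. This centring moves every peak by the same amount, so it takes out those nearest the threshold. With 4 scalings (centring on promoter peaks, quantile, GC trend removed, cyclic loess) and the omission of each library in turn, 152 members met the rule every time, 76 of them CpG-rich, 28 intermediate and 48 CpG-poor. Hoxa11os at both peaks, Lmo7, Gramd3, Coil at both peaks, Iqcj, Mpped2, Cdc40, Tbx4, Sfi1, Sap130 and Rpl41 were among them, and Hoxd13, Twist1, Dach1, Dlx3 and all 9 signalling genes were not. Hoxd13 failed only with the GC trend removed, at -0.36, and Wnt11 and Axin2 also failed only there.

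**Figure D5:**
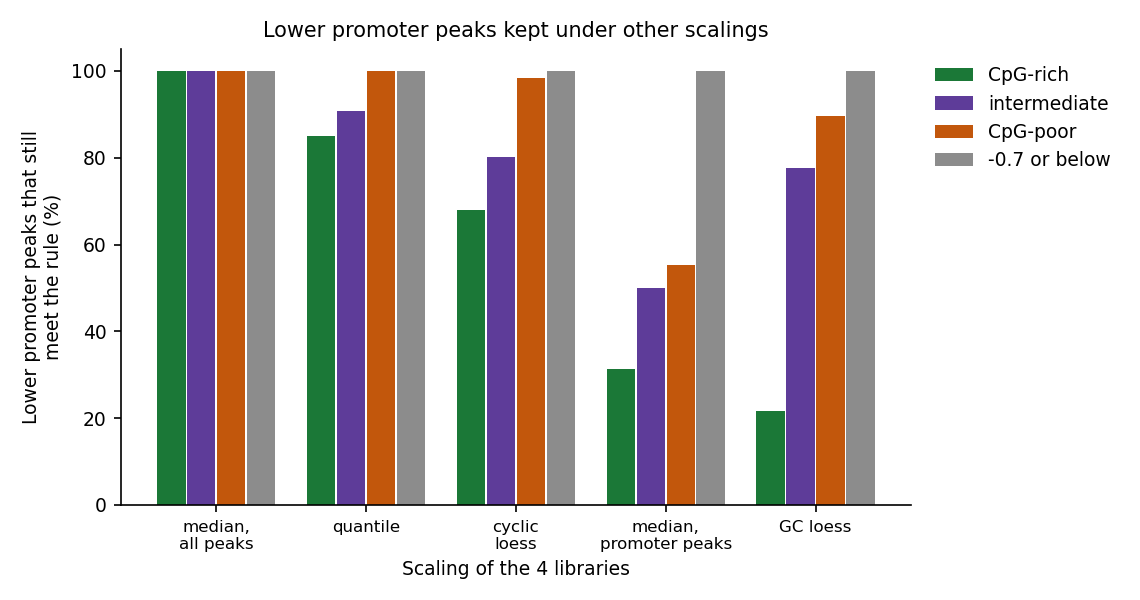
Share of the 749 members that still met the rule (percent, vertical axis) under 5 other scalings of the 4 libraries (horizontal axis), by CpG class and for the 40 members at -0.7 or below. Of CpG-rich members 31.2% were kept after centring on promoter peaks and 21.5% after removal of the GC trend. All 749 members stayed below 0 in both, with median differences of -0.377 and -0.365 against -0.458 as deposited. Staying below 0 follows largely from their choice at or below -0.4. The 40 largest decreases are at 100% throughout, as a group chosen far from the threshold.

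Short motifs were searched on both strands in the 200 bp around each midpoint. CAATAAA, a HOX13-like motif, was in 19 of the 749 members (2.54%) and in 1.55% of the other promoter peaks. In CpG-poor peaks the shares were 12.1% of 116 members and 3.82% of the others, and in CpG-rich peaks 0.180% and 0.720%. A second HOX13-like form, TCGTAAA, added after the values had been seen, was in 0.534% and 0.479%. TATAAA, the TATA box, was in 6.41% of members and 3.48% of the others, with 30.2% and 8.20% in CpG-poor peaks. In CpG-rich peaks the order was the other way, with 6 of 557 members (1.08%) and 192 of 12775 others. The CpG-poor members were also lower in GC content than the other CpG-poor promoter peaks, with medians of 47.0% and 52.2%, and the part of base composition in these shares was not tested. CAATAAA and the TATA box end in the same letters but cannot match at the same place, and a CCAAT match can run into a CAATAAA match.

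Of the 12 largest decreases, Iqcj and Cdc40 held a CAATAAA match in this window, at 12 bp and 15 bp from the midpoint. These sites are shown with 10 bases on each side and the motif in capitals, at chr3:67891735-67891761 for Iqcj and chr10:40844951-40844977 for Cdc40, both on the plus strand of mm10.
Iqcj: taaaaagaagCAATAAAtccagttttc
Cdc40: gaaatattacCAATAAAtgttctcaga
GGGCGG, the GC box, was in 54.6% of members and 44.9% of the other promoter peaks, with 67.7% and 59.9% in CpG-rich peaks and, the other way, 5.17% and 11.4% in CpG-poor peaks. CCAAT was in 25.4% and 22.6%, the ETS motif CCGGAAG in 9.61% and 8.25%, the E-box CACGTG in 7.74% and 5.47%, the cyclic AMP response element TGACGTCA in 1.74% and 1.55%, and a consensus NRF1 motif in 0.401% and 0.721%. A match describes the letters only and is not a bound site, and a longer peak does not add to these shares because the window was fixed.

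Markers of the cell types in the bud were read at the strongest promoter peak of each gene. Of 9 limb mesenchyme markers, all had a promoter peak, with a median mean rLog of 5.79 and a median difference of -0.08, and Twist1 was the 1 member. Hoxd13 was read at its upstream peak (-0.26), so its start-site peak, a member at -0.52, was not counted here. For ectoderm 2 of 7 markers had a promoter peak, for muscle precursors 2 of 6, for endothelium 2 of 6, for blood 1 of 6 and for neural crest and nerve 3 of 5, and none was a member. Krt5, Krt14 and Trp63 of the ectoderm, Pax3, Pax7 and Myf5 of muscle precursors, Cdh5 and Pecam1 of endothelium and Sox10 had no promoter peak. The medians of those that had one differed between genotypes by -0.07 in ectoderm, 0.24 in muscle precursors, -0.01 in endothelium, -0.13 in blood and -0.19 in neural crest and nerve. The muscle precursor value rests on Met, at 5.27 and 5.13 against 5.58 and 5.70, and on Myod1, at 4.12 and 4.30 against 4.31 and 4.20. Their part in the members' differences was not tested.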

How the data were processed

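Reads of the 4 libraries were aligned by the authors to mm10 with Bowtie2 2.3.1. Peaks were called per library with MACS2 2.1.1.20160309 and merged with HOMER 4.9.1, and the authors' differential step, which runs DESeq2, gave the deposited rLog values, on a log2 scale, for 61954 peaks on 19 autosomes. The deposited table also lists which libraries each peak was called in (a text annotation, neither a score nor a count) and 3 columns of the authors' own comparison, a fold change and 2 p-values, which were not used. Handling of duplicate reads, blacklisted regions and the Tn5 offset is not given in the sources used here. Read counts per peak were not used here, so the number of reads behind each value is unknown, and the study's DESeq2 test was not rerun.

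Start sites came from all transcripts of GENCODE M21, and the owner was the gene with the start site nearest the midpoint. Sequences, GC content and the observed to expected CpG ratio were taken with pysam 0.24.0 from GRCm38.p6, the same assembly as mm10. Coordinates count from 1. All 61954 peaks were fitted with limma 3.58.1 in R 4.3.3 (genotype, variance trend on mean signal, two-sided, Benjamini-Hochberg). The procedure was tested on simulated data with no GC trend and with decreases larger than those of all members but Hoxa11os. That simulation cannot show how smaller decreases are called. The fit gives only the share of promoter peaks called, since the members were chosen on the same contrast. All 749 members had an adjusted p under 0.05, from which nothing is read. With 2 libraries per genotype, peaks of like mean signal had almost the same standard error, whatever their own replicate spread. It was 0.131 at a Zfp423 peak, with replicate SDs of 0.034 and 0.0006 in wild type and mutant. At a Gm16026 peak, with SDs of 0.306 and 0.081, it was also 0.131. The p-values thus rest on a spread between these embryos pooled over peaks, not on the spread at each peak. Tables and figures used Python 3.11.15, pandas 2.3.3 and matplotlib 3.10.9. Copies of the central 32 bases were counted, as an addition after the values were seen, as exact matches on either strand of the chromosomes.

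The members and the gene lists were chosen with earlier results of these data known. Named peaks were the 12 largest decreases, the 5 members of highest signal, the 4 of highest and 4 of lowest GC content, members in a gene list, the 3 on either side of the threshold and the Hoxa13 and Hoxd13 start sites. Schip1, Esr1 and the small nuclear RNA genes were added after their values were seen. Alternatives were other thresholds, windows and transcript sets, 5 scalings of the libraries, a filter on low signal, limma without the trend or with a replicate term, and leaving out each library.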

Additional observations from a re-analysis of the deposited data

How the results depend on the processing

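The number of members moved with the threshold and the scaling. It was 2270 at -0.3, 219 at -0.5, 1127 with libraries centred on the median of all peaks, 276 on that of promoter peaks, 412 with the GC trend removed (283 shared with the 749), and 1043 to 1350 with 1 library left out, where 1 value fewer has to stand apart. Other windows, transcript sets, quantile scaling, cyclic loess and the signal filter gave 550 to 885. The median GC content of members, 65.3% as reported, was 62.2% at -0.5, 66.3% within 500 bp, 64.1% within 2 kb, 66.7% for peaks over a start site, 66.7% for protein-coding transcripts, 63.4% with centring on promoter peaks, 52.4% with the GC trend removed, 67.0% in the central 200 bp, and 64.4% to 65.7% with 1 library left out. The median signal, 6.25 as reported, was 6.39 at -0.3, 5.77 at -0.5, 6.40 within 500 bp, 6.07 within 2 kb, 6.53 for peaks over a start site, 6.45 for protein-coding transcripts, 5.84 with centring on promoter peaks, 5.93 with quantile scaling, 5.61 with the GC trend removed and 5.61 with cyclic loess. Motif shares over the whole peak, in members and other promoter peaks, were 10.3% and 6.38% for TATAAA, 41.3% and 35.6% for CCAAT, 72.0% and 57.2% for GGGCGG, 16.8% and 14.9% for CCGGAAG, 16.4% and 11.02% for CACGTG and 4.27% and 2.77% for TGACGTCA, and members were the longer peaks. Promoter peaks called lower by limma numbered 1779 as reported, 922 with the GC trend removed and 805 to 1222 with 1 library left out, and those higher 509 and 316 to 381. The GENCODE basic transcripts and TCGTAAA were chosen after seeing the data. The replicate block gave 1673 lower and 507 higher. The labels give same-numbered libraries nothing in common but the number. Their deviations correlated at -0.01, which cannot show whether they shared a preparation. Shrinkage of rLog limits what weak peaks can show, and the cause of these shifts was not tested.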
